A study of Mus musculus with 9 samples.

Results

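The adipocyte genes described here are 10 rows of a mouse gene table, chosen by gene name as textbook products of fat cells, out of 34745 genes measured. They are Adipoq, Lep, Retn, Cfd, Plin1, Cidec, Fabp4, Lpl, Pparg and Car3. After a filter on low counts 8 of the 10 passed and were tested among 14506 genes, while Lep and Retn did not pass. RNA was sequenced from 9 tumours grown under the skin of the right flank of male C57BL/6 mice from injected LLC cells, a mouse lung cancer line (Lewis lung carcinoma) that this strain does not reject. Mice were randomised at a tumour volume near 100 mm3. Of the tumours, 3 came from mice given BTZ (bortezomib, a proteasome inhibitor, 0.5 mg/kg) with an antibody against PDL1 (10 mg/kg), 3 from mice given the anti-PDL1 antibody alone (10 mg/kg) and 3 from mice given an isotype control antibody (10 mg/kg). All agents were injected into the peritoneum, and all samples carry the genotype label WT. The label for host age has no unit, the control libraries are titled blank although their treatment label is isotype, and a group given BTZ alone was not analysed here. Each library held 18.52 to 21.51 M (mega) counts. The line is labelled lung adenocarcinoma, yet of 6 lung epithelial markers Nkx2-1, Sftpc, Sftpb, Sftpa1 and Scgb1a1 had no count in any tumour, Napsa reached 3.84 FPKM, and of 5 general epithelial markers Krt18 ran from 40.5 to 81.8 FPKM and Krt8 from 2.02 to 15, while Cdh1, Krt19 and Epcam stayed at or below 1.71, 1.63 and 0.117 FPKM.

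White adipocytes store triglyceride in a large droplet coated with perilipin, take up fatty acids that lipoprotein lipase frees from circulating lipoproteins, and secrete hormones called adipokines. The nuclear receptor PPARgamma, encoded by Pparg, drives the differentiation of these cells and the transcription of many of the other genes in the list. Fat lies directly under mouse skin, above a thin sheet of muscle, so a subcutaneous tumour grows next to both tissues. Fabp4, Lpl and Pparg are also known to be expressed by macrophages or endothelial cells, and Car3 by skeletal muscle, whereas Adipoq, Plin1, Cidec, Lep and Cfd are more closely tied to fat.

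Promoter sequence is shown for Adipoq and Plin1, whose levels followed each other most closely over the 9 tumours, and for Pparg, the gene that varied least. RefSeq promoters of build GRCm38.p6 (the assembly also called mm10) matched 7 of the 10 genes, with 10 windows of the 250 bases before a transcription start. Capitals mark motif matches on either strand, which are CCAAT boxes in Adipoq, C/EBP sites in Plin1, and a GC box followed by a nuclear receptor half-site in Pparg.
Adipoq, chr16:23146286-23146535, plus strand: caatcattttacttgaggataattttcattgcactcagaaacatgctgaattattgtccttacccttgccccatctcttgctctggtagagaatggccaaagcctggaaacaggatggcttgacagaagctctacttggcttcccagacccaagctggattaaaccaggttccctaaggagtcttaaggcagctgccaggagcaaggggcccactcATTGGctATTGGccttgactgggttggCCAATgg
Plin1, chr7:79732777-79733026, minus strand: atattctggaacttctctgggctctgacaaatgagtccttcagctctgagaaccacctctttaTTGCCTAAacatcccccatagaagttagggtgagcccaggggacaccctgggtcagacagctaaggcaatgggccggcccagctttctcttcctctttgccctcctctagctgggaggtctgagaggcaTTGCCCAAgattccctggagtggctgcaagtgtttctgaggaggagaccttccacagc
Pparg, first of its 3 starts, chr6:115360894-115361143, plus strand: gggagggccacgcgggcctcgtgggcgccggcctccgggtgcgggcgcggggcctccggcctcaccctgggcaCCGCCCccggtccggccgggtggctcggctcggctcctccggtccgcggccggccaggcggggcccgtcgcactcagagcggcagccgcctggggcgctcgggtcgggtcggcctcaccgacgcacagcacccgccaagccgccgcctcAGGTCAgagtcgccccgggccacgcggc
These motifs were searched as CCAAT, TTGCNNAA for C/EBP, GGGCGG for the GC box and AGGTCA for the half-site. Adipoq held 3 CCAAT boxes within the last 34 bases before its start, and CCAAT occurred in 33.8% of all 32851 promoter windows of this length. Plin1 held 2 C/EBP matches, at 187 and 58 bases before its start, and 9.56% of all windows held at least 1. The first Pparg window had 82.4% G and C, against a median of 52.4% over all windows. It held a GC box (in 32.7% of all windows) and a half-site (in 14% of all windows). None of the 10 windows held the PPAR direct repeat, searched as the half-site followed by any base and the half-site again, which was found in 0.0335% of all windows. That says only that these letters are not in these 250 bases. TATAAA, in 12.4% of all windows, was also searched and was in none of the 3 windows shown. The windows of Plin1 and Pparg reach into the gene bounds of the deposited table, since RefSeq places these starts further downstream.

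The adipocyte genes varied widely between tumours of the same group. Among isotype tumours, replicate 3 had the highest value of all 9 tumours for every one of the 10 genes. Isotype replicates 1 and 2 were at or near 0 for Adipoq, Lep, Retn, Cfd, Plin1, Cidec and Car3. The tumours of both treated groups lay between these extremes for most of the genes. For each gene the groups overlapped in all 3 comparisons, and none passed edgeR's test in any of them. CPM below are counts brought to a common library size by TMM scaling, and values stand in the order of replicates 1, 2 and 3.

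Adipoq (ENSMUSG00000022878, chr16:23146536-23158028) encodes adiponectin, a hormone made almost entirely by fat cells. It had 28, 9 and 39 counts in BTZ+anti-PDL1 tumours, 42, 22 and 13 counts in anti-PDL1 tumours, and 2, 2 and 134 counts in isotype tumours. As CPM these were 1.4, 0.481 and 2.03 in BTZ+anti-PDL1 tumours, 2.1, 1.12 and 0.609 in anti-PDL1 tumours, and 0.105, 0.099 and 7 in isotype tumours. The isotype group thus held both the lowest tumours and the highest, and its 2 low tumours lay under the 0.148 to 0.157 CPM that a count of 0 still allows at their depth (3 counts, counting error only). In bulk tissue fewer adipocytes and less Adipoq RNA per adipocyte cannot be told apart.

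Cfd (ENSMUSG00000061780, chr10:79890853-79892656) encodes complement factor D, or adipsin, a serine protease of the alternative complement pathway that fat cells secrete. It was measured at 7.56, 1.6 and 24.9 CPM in BTZ+anti-PDL1 tumours, 17.2, 6.65 and 2.76 CPM in anti-PDL1 tumours, and 0, 0.445 and 58.1 CPM in isotype tumours. The 1112 counts of isotype replicate 3 stood against 0 counts in isotype replicate 1, which makes Cfd at least 369-fold higher in replicate 3, taking the limit of 3 counts in replicate 1.

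Retn encodes resistin, an adipokine of mouse white fat. Its counts were 9, 3 and 20 in BTZ+anti-PDL1 tumours, 6, 3 and 4 in anti-PDL1 tumours, and 0, 2 and 75 in isotype tumours, so isotype replicate 3 alone held 62.1% of its summed CPM, the largest such share of the 10 genes. Lep encodes leptin, the satiety hormone, and had 3, 0 and 0 counts in BTZ+anti-PDL1 tumours, 3, 3 and 3 counts in anti-PDL1 tumours, and 0, 0 and 5 counts in isotype tumours. Its 17 counts in all were too few to show any difference, and no order of the groups can be read from them. Neither hormone reached the count filter. In an edgeR fit without that filter Retn had log2 fold changes of 1.35 ± 1.69 (SE) for BTZ+anti-PDL1 against anti-PDL1, -2.61 ± 1.64 for anti-PDL1 against isotype and -1.27 ± 1.5 for BTZ+anti-PDL1 against isotype, with edgeR adjusted p-values of 0.926, 0.863 and 0.848.

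Plin1 and Cidec encode proteins of the lipid droplet surface, perilipin 1, which gates lipolysis, and CIDEC, which promotes the fusion of droplets. Plin1 (ENSMUSG00000030546, chr7:79720218-79732903) had 11, 7 and 27 counts in BTZ+anti-PDL1 tumours, 30, 17 and 4 counts in anti-PDL1 tumours, and 0, 1 and 66 counts in isotype tumours. Cidec (ENSMUSG00000030278, chr6:113424634-113435760) had 39, 2 and 41 counts in BTZ+anti-PDL1 tumours, 36, 15 and 11 counts in anti-PDL1 tumours, and 0, 2 and 127 counts in isotype tumours. Both followed the order of Adipoq at the extremes, with isotype replicate 3 highest and isotype replicates 1 and 2 lowest. Isotype replicate 3 stood at least 42.2-fold above isotype replicate 1 for Cidec and at least 21.9-fold for Plin1.

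Fabp4 (ENSMUSG00000062515, chr3:10204088-10208576), a carrier of fatty acids inside the cell, was measured at 18.8, 7.91 and 26.7 CPM in BTZ+anti-PDL1 tumours, 22.9, 12.9 and 15 CPM in anti-PDL1 tumours, and 9.97, 20.2 and 85.2 CPM in isotype tumours. Lpl (ENSMUSG00000015568, chr8:68880491-68907448), lipoprotein lipase, was measured at 17, 7.43 and 23.3 CPM in BTZ+anti-PDL1 tumours, 18.8, 21.1 and 18.7 CPM in anti-PDL1 tumours, and 7.4, 12 and 41.6 CPM in isotype tumours. These 2 genes stayed well above 0 in every tumour, including those with almost no Adipoq. The highest tumour exceeded the lowest 10.8-fold for Fabp4 and 5.62-fold for Lpl, against 70.8-fold for Adipoq.

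Pparg (ENSMUSG00000000440, chr6:115360951-115490399) was measured at 1.5, 1.07 and 1.56 CPM in BTZ+anti-PDL1 tumours, 1.95, 1.62 and 1.03 CPM in anti-PDL1 tumours, and 1.26, 1.39 and 2.09 CPM in isotype tumours. The highest tumour was only 2.03-fold above the lowest, and the isotype tumours with 2 Adipoq counts each still had 24 and 28 Pparg counts.

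Car3 (ENSMUSG00000027559, chr3:14863512-14872523), carbonic anhydrase 3, an abundant cytosolic protein of fat and of skeletal muscle, had the largest spread within groups of the 8 genes tested. It was measured at 30.5, 0.801 and 15.1 CPM in BTZ+anti-PDL1 tumours, 37.3, 5.48 and 3.37 CPM in anti-PDL1 tumours, and 0, 0.247 and 65.3 CPM in isotype tumours. Isotype replicate 3 was at least 415-fold above isotype replicate 1, and within the BTZ+anti-PDL1 group replicate 1 had 610 counts and replicate 2 had 15.

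**Figure D1:**
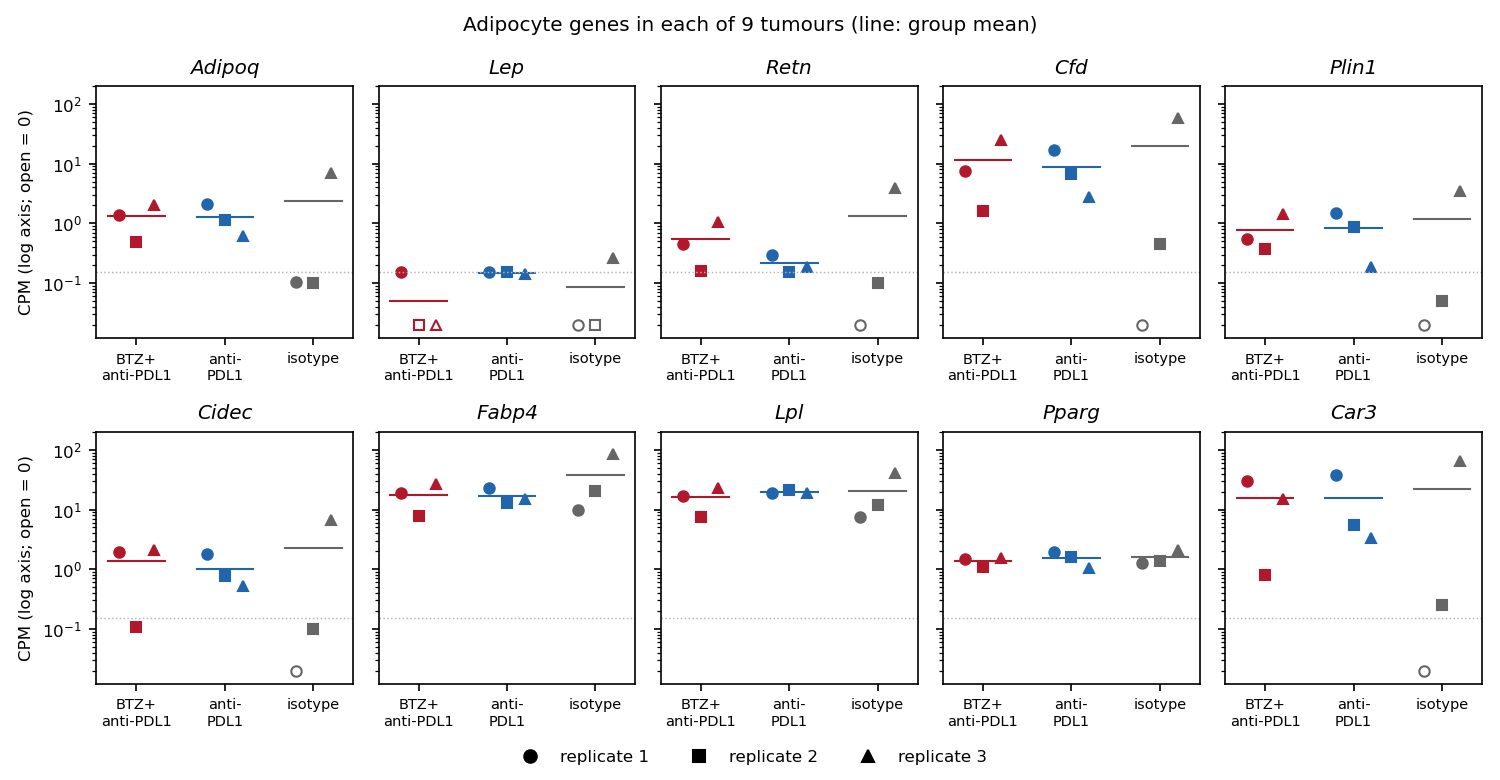
CPM on a log axis of each adipocyte gene in each tumour, for BTZ+anti-PDL1 (red), anti-PDL1 (blue) and isotype (grey). Horizontal lines are group means, symbols are replicates, open symbols at the bottom are counts of 0, and the dotted line is the CPM that a count of 0 still allows. Isotype replicate 3 is the highest point in all 10 panels, and isotype replicates 1 and 2 lie at or near the bottom for Adipoq, Retn, Plin1 and Cidec but not for Fabp4, Lpl or Pparg. Isotype replicates 1 and 2 are also the lowest points for Cfd and Car3.

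Compared between genes per transcript length, as mean FPKM over the 9 tumours, Cfd was the most abundant at 14.5 FPKM and exceeded 77.1% of the genes tested. Fabp4 at 4.78 and Car3 at 4.77 FPKM came next, near the middle of the genes tested, followed by Lpl at 2.44 and Adipoq at 1.05 FPKM. Cidec at 0.482, Retn at 0.412, Pparg at 0.361, Plin1 at 0.148 and Lep at 0.0273 FPKM were lower than most genes tested. Every pair of neighbours in this order overlapped in its range over tumours. Compared within each tumour, Lpl was above Adipoq and Adipoq above Cidec in all 9 tumours. The order of the other neighbours was not the same in every tumour. A large share of the summed CPM came from a single tumour: isotype replicate 3 held 48.8% of the summed CPM of Cfd, 47.4% for Cidec, 46.9% for Adipoq, 41.3% for Car3 and 41.2% for Plin1. The share was 38.8% for Fabp4, 24.9% for Lpl and 15.5% for Pparg.

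The first comparison was BTZ+anti-PDL1 against anti-PDL1, which addresses what BTZ added to the antibody. No adipocyte gene was called by edgeR's quasi-likelihood test at an adjusted p under 0.05 (0 of 8 tested, against 0.0138% of all genes), and none had an unadjusted p under 0.05 (5.82% of all genes did). Log2 fold changes with their standard errors were 0.04 ± 1.41 for Adipoq, 0.36 ± 1.94 for Cfd, -0.12 ± 1.48 for Plin1, 0.45 ± 1.65 for Cidec, 0.07 ± 0.814 for Fabp4, -0.29 ± 0.663 for Lpl, -0.15 ± 0.339 for Pparg and 0.01 ± 2.11 for Car3. The edgeR adjusted p-values ran from 0.969 to 0.999. Of the 8 genes 5 had higher and 3 lower values with BTZ, and their median log2 fold change was 0.03, against 0.00295 over all genes. The groups overlapped for all 10 genes, where 14.3% of all genes had groups that did not overlap. Mean CPM was 1.3 ± 0.779 in BTZ+anti-PDL1 tumours and 1.28 ± 0.758 in anti-PDL1 tumours for Adipoq, and 11.4 ± 12.1 in BTZ+anti-PDL1 tumours and 8.85 ± 7.44 in anti-PDL1 tumours for Cfd (SD, n = 3 each). The standard errors of these genes had a median of 1.44, against 0.138 over all genes, so a change of several-fold in either direction could pass undetected for most of the list.

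The second comparison was anti-PDL1 against isotype, which addresses what the antibody did on its own. All 8 tested genes had lower values in anti-PDL1 tumours than in isotype tumours, with a median log2 fold change of -0.71 (-0.00342 over all genes), yet no adipocyte gene was called by edgeR (0 of 8, against 0.0138% of all genes) or had an unadjusted p under 0.05 (6.35% of all genes did). The log2 fold change was -1.18 ± 0.817 for Fabp4, -1.14 ± 1.95 for Cfd, -1.13 ± 1.63 for Cidec, -0.91 ± 1.38 for Adipoq, -0.51 ± 2.11 for Car3, -0.46 ± 1.45 for Plin1, -0.06 ± 0.66 for Lpl and -0.04 ± 0.337 for Pparg. The edgeR adjusted p-values ran from 0.825 to 0.997, and the groups overlapped for all 10 genes (12.7% of all genes had groups that did not). Mean Adipoq was 1.28 ± 0.758 CPM in anti-PDL1 tumours and 2.4 ± 3.99 CPM in isotype tumours (SD, n = 3 each), so the spread of the isotype group exceeded its own mean.

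In the third comparison, BTZ+anti-PDL1 against isotype, all 8 tested genes again had lower values in the treated tumours, with a median log2 fold change of -0.63 (-0.0011 over all genes). This comparison shares the isotype tumours with the one before it. None of the 8 was called by edgeR (0.00689% of all genes were) or had an unadjusted p under 0.05 (8.6% of all genes did). The log2 fold changes were -1.11 ± 0.816 for Fabp4, -0.87 ± 1.38 for Adipoq, -0.78 ± 1.93 for Cfd, -0.68 ± 1.6 for Cidec, -0.58 ± 1.46 for Plin1, -0.49 ± 2.11 for Car3, -0.35 ± 0.663 for Lpl and -0.2 ± 0.339 for Pparg, with edgeR adjusted p-values of 0.724 to 0.958. The groups overlapped for all 10 genes, against 13% of all genes whose groups did not.

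The lower values in both comparisons with isotype rested on isotype replicate 3. Without that tumour all 8 tested genes had higher values in anti-PDL1 tumours than in the 2 remaining isotype tumours (median log2 fold change 3.87, against 0.000858 over all genes), and also in BTZ+anti-PDL1 tumours (median 4.11, against 0.00537 over all genes). Adipoq then stood 3.56 ± 0.892 higher on the log2 scale in anti-PDL1 tumours than in isotype tumours and 3.6 ± 0.892 higher in BTZ+anti-PDL1 tumours than in isotype tumours, with edgeR adjusted p-values of 0.255 and 0.149. No gene of the list was called (0.0136% and 0.136% of all genes were), while 5 of the 8 (Adipoq, Cfd, Plin1, Cidec and Car3) had an unadjusted edgeR p under 0.05 and were higher, in both comparisons. The tumour left out is the highest of all 9 for every gene of the list, so these p-values are a description and no test of the groups. Both comparisons also share the same 2 isotype tumours. The sizes of these values rest on few counts, since isotype replicates 1 and 2 together held 4 counts of Adipoq, 1 of Plin1, 2 of Cidec, 9 of Cfd and 5 of Car3. A higher value at that p was found for 6.24% of the 14691 genes tested for anti-PDL1 against isotype and for 6.98% for BTZ+anti-PDL1 against isotype. Fabp4 and Pparg moved much less, to 0.17 ± 0.552 and 0.21 ± 0.361 for anti-PDL1 against isotype and to 0.24 ± 0.553 and 0.06 ± 0.362 for BTZ+anti-PDL1 against isotype. The direction of the list between treated and isotype tumours thus turned with a single library. By limma on log2(FPKM + 0.1), an FPKM filter left only 5 genes of the list, and Plin1, Cidec and Pparg were not tested. Adipoq, Cfd and Car3 turned to 0.72, 2.28 and 1.92 for anti-PDL1 against isotype. For BTZ+anti-PDL1 against isotype these genes turned to 0.73, 2.29 and 1.75. Lpl turned only for anti-PDL1 against isotype, to 0.31, and Fabp4 kept its direction in both. Again none was called. Leaving out isotype replicate 3 kept the comparison of BTZ+anti-PDL1 with anti-PDL1 at a median of 0.03. There none of the 8 was called (0.00681% of all genes). None of the 8 was higher at an unadjusted p under 0.05 (3.41% of all genes were). Counting both directions, none of the 8 was at that p either, where 996 of the 14691 genes tested were.

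**Figure D2:**
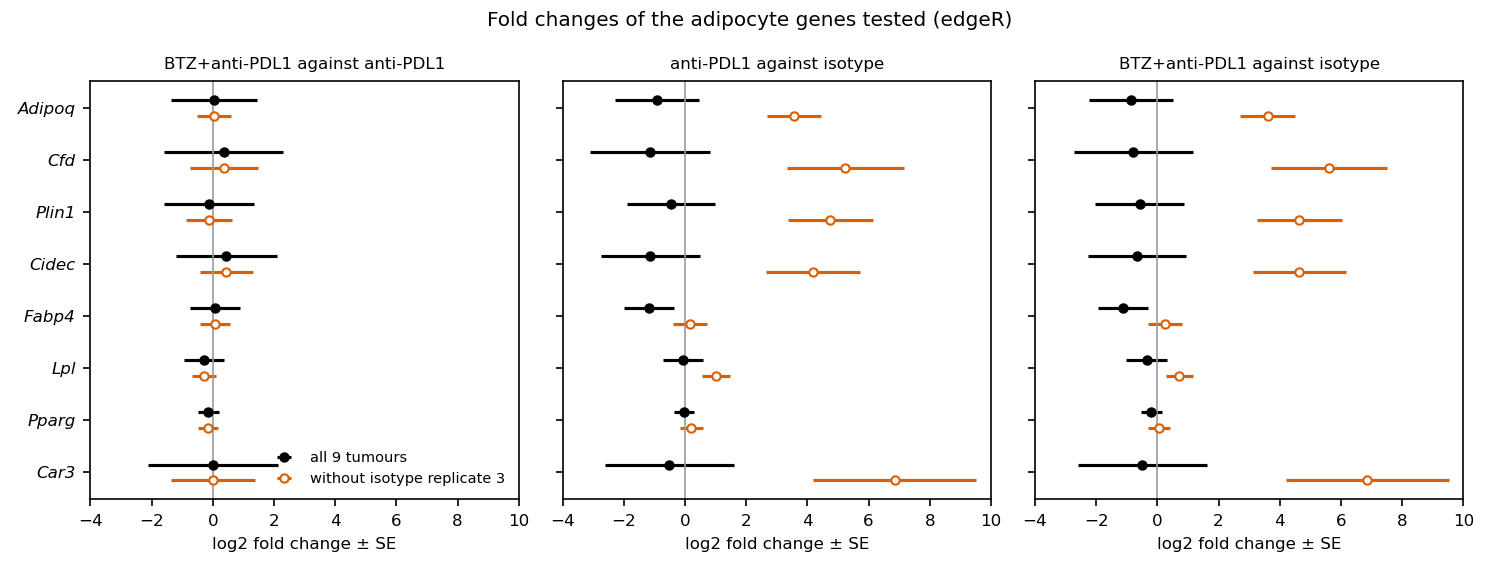
Log2 fold change with its standard error from edgeR for the 8 adipocyte genes tested, in the 3 comparisons, with all 9 tumours (black, filled) and without isotype replicate 3 (orange, open). In both comparisons with isotype the black points lie below 0 and the orange points above it, by over 3 log2 units for Adipoq, Cfd, Plin1, Cidec and Car3 and by about 1 or less for Fabp4, Lpl and Pparg.

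Spread between tumours of the same group was large for most of these genes. The SD of log2 CPM around the group means was 3.42 for Car3, 3.05 for Cfd, 2.24 for Cidec, 1.86 for Adipoq and 1.85 for Plin1, while the median over all 14506 genes was 0.17 and the 99th percentile 1.79. By this measure Car3 ranked 17th from the top of all genes and Cfd 30th. Fabp4 at 1.07 and Lpl at 0.886 were above 97.3% and 96.1% of genes, and Pparg at 0.368 was above 78.9%. The 5 genes with the larger spread were thus those at or near 0 counts in isotype replicates 1 and 2, and the other 3 were those with many counts there. Genes of low level have larger spreads in general, as the cloud of all genes in the plot of spread against level shows.

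**Figure D3:**
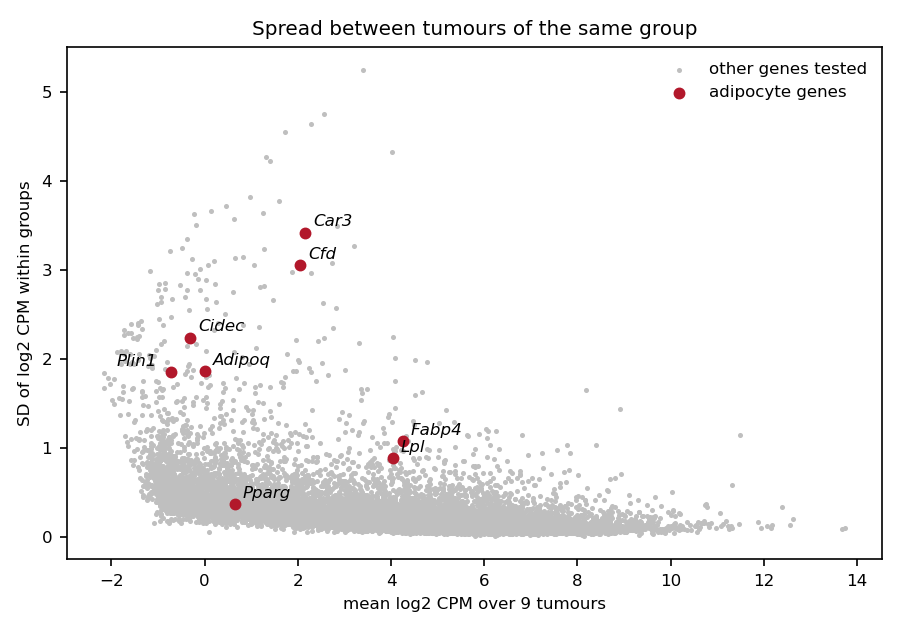
SD of log2 CPM within groups (vertical axis) against mean log2 CPM over 9 tumours (horizontal axis) for the 8 adipocyte genes tested (red) and all other genes tested (grey). Car3 (3.42) and Cfd (3.05) stand near the top of the cloud at their level, and Pparg (0.368) lies inside it.

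Profiles over the 9 tumours were compared by the mean absolute difference of log2 CPM after each gene was centred on its own mean, which is given as a description with no test. The closest pair in the list was Adipoq with Plin1, at 0.362 log2 units, then Fabp4 with Lpl at 0.366, Adipoq with Cidec at 0.447 and Lpl with Pparg at 0.488. The furthest pair was Pparg with Car3 at 2.39. Among 14505 genes ranked by likeness to Adipoq, Plin1 was the second and Cidec the third, whereas Lpl ranked 102, Fabp4 140, Cfd 207, Pparg 544 and Car3 10056, the last with a difference of 1.34 against a median of 1.31 over all genes. All these profiles come from the same 9 libraries, in which isotype replicate 3 is high and isotype replicates 1 and 2 are low. The measure grows with the size of a swing as well as with a difference in the order of tumours. Car3, like Adipoq, was lowest in isotype replicates 1 and 2 and highest in isotype replicate 3, but swung further. Its low rank therefore does not show that it moved apart from Adipoq.

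Predicted loci left out, the genes outside the list most like Adipoq were Hp, Cyp2e1, Clic5, Anxa8, Fxyd6, Chp2, Klrc2 and Cnksr1, with differences from 0.305 to 0.644 log2 units. Hp, which encodes the haemoglobin scavenger haptoglobin and is known as a product of liver and fat, was the closest gene of all. It had 357, 121 and 808 counts in BTZ+anti-PDL1 tumours, 656, 392 and 309 counts in anti-PDL1 tumours, and 87, 89 and 2124 counts in isotype tumours, more than Adipoq in every tumour. Cyp2e1, a cytochrome P450 known from liver and fat, had 16, 3 and 26 counts in BTZ+anti-PDL1 tumours, 27, 11 and 2 counts in anti-PDL1 tumours, and 1, 0 and 26 counts in isotype tumours. Several of the others had few counts, so their place in this order is loose: Anxa8 had 50 counts in isotype replicate 3 and at most 13 in any other tumour.

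**Figure D4:**
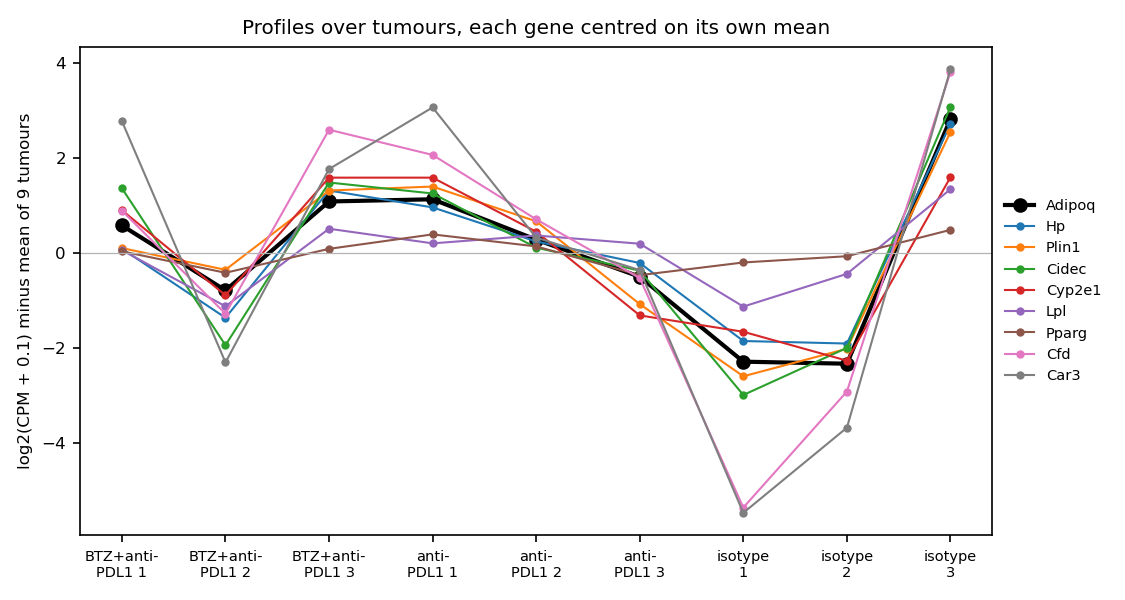
Log2(CPM + 0.1) of Adipoq (thick black), 6 other genes of the list (Plin1, Cidec, Lpl, Pparg, Cfd and Car3), and the non-members Hp and Cyp2e1, each minus its mean over the 9 tumours, by tumour. Plin1, Cidec and Hp run along Adipoq, Cfd and Car3 swing further in the same tumours, and Pparg and Lpl stay nearer 0.

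Ratios between genes of the list within a tumour do not depend on library size. Fabp4 had between 10.9 and 24.7 times the counts of Adipoq in the 7 tumours with at least 9 Adipoq counts. In isotype replicates 1 and 2 the ratio was 95 and 204, with exact binomial intervals (95%, counting error only) of 25.9 to 790 and 56.3 to 1690, all above the 24.7 of anti-PDL1 replicate 3, whose own interval was 14.2 to 46.9. Fabp4 RNA was thus present in tumours where Adipoq RNA was close to absent. Plin1 had 0.308 to 0.778 times the counts of Adipoq in those 7 tumours, and the exact binomial interval of each of the 7 held 0.493, the value of isotype replicate 3. Cfd had 5.39 (3.59 to 8.39), 3.33 (1.54 to 7.98) and 12.3 (8.85 to 17.5) times the counts of Adipoq in BTZ+anti-PDL1 tumours, 8.17 (5.92 to 11.5), 5.95 (3.77 to 9.83) and 4.54 (2.46 to 9.02) in anti-PDL1 tumours, and 8.3 (6.93 to 10) in isotype replicate 3. The interval of BTZ+anti-PDL1 replicate 3 lay above those of the other tumours of its group and overlapped those of the anti-PDL1 tumours and isotype replicate 3. Within the BTZ+anti-PDL1 group, Car3 against Cfd was 4.04 in replicate 1 (3.38 to 4.86), 0.5 in replicate 2 (0.25 to 0.959) and 0.608 in replicate 3 (0.523 to 0.704). In the anti-PDL1 group this ratio of counts was 2.17, 0.824 and 1.22, and isotype replicate 3 had 1.12.

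Markers of skeletal muscle moved with much of this pattern. The 17 muscle genes examined had the actin Acta1, the creatine kinase Ckm and the troponin Tnnc2 highest in mean FPKM. Their summed CPM was 1020, 36.9 and 22.2 in BTZ+anti-PDL1 tumours, 1300, 146 and 279 in anti-PDL1 tumours, and 20.5, 22.8 and 3480 in isotype tumours. Isotype replicate 3 was thus highest in both muscle and adipocyte RNA, and isotype replicates 1 and 2, with 8 and 3 of the 17 muscle genes at 0, were among the lowest in both. BTZ+anti-PDL1 replicate 3 departed from this, with the second lowest muscle sum, 22.2 CPM and 6 of 17 genes at 0, beside the third highest Adipoq value, 2.03 CPM, and 24.9 CPM of Cfd. The tumours with a Car3 to Cfd ratio of counts above 2, BTZ+anti-PDL1 replicate 1 and anti-PDL1 replicate 1, had muscle sums above 1000 CPM, while isotype replicate 3, with the highest muscle sum, had a ratio of 1.12. When the tumour richest in muscle RNA was left out of each group, the median log2 fold change of the 8 genes was 3.25 for anti-PDL1 against isotype and 3.93 for BTZ+anti-PDL1 against isotype, and no gene of the list was called by edgeR. This setting leaves out isotype replicate 3, and leaving out that tumour alone gave medians of 3.87 and 4.11. The values are therefore no separate result on muscle. The part of neighbouring muscle or fat in these results was not tested.

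**Figure D5:**
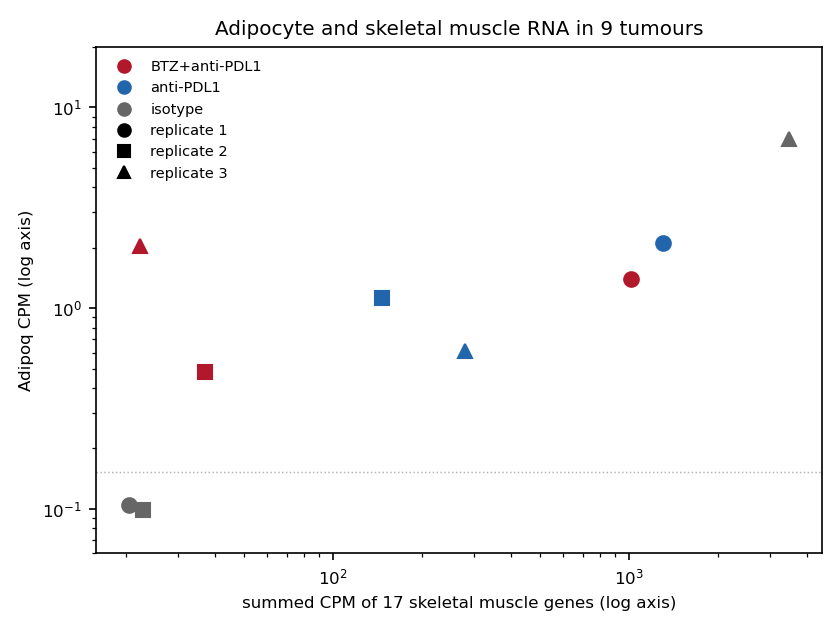
Adipoq CPM (vertical, log axis) against the summed CPM of 17 skeletal muscle genes (horizontal, log axis) in each of the 9 tumours, coloured by group with a symbol for each replicate number. The dotted line is the CPM that a count of 0 still allows. Isotype replicate 3 is at the upper right (7 and 3480 CPM), isotype replicates 1 and 2 are at the lower left, and BTZ+anti-PDL1 replicate 3 is at the upper left (2.03 and 22.2 CPM).

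Marker sums of the cell types given next, which leave out muscle, spanned narrower ranges over tumours than the 14.7-fold of the 10 adipocyte genes. The summed CPM of macrophage genes, with Lyz2, C1qb and C1qa highest in FPKM, was 2780 to 3930 in BTZ+anti-PDL1 tumours, 3490 to 3640 in anti-PDL1 tumours and 2050 to 3660 in isotype tumours. That of 10 endothelial genes, with Cdh5, Pecam1 and Esam highest in FPKM, was 195 to 235 in BTZ+anti-PDL1 tumours, 241 to 300 in anti-PDL1 tumours and 232 to 359 in isotype tumours. Keratinocyte genes, of which Sbsn, Krt14 and Krt5 were highest, summed to 7.11 to 10.8 CPM in BTZ+anti-PDL1 tumours, 8.94 to 10.2 in anti-PDL1 tumours and 7.61 to 26.5 in isotype tumours. In isotype replicate 3, the tumour highest in adipocyte RNA, the sum was 26.5 CPM with 2 of 12 genes at 0, Krt14 was at 3.12 FPKM and Krt5 at 3.62 FPKM, against at most 0.398 and 0.127 FPKM in any other tumour. The part of skin in the adipocyte values was not tested. Red blood cell genes (Hba-a1, Hbb-bs and Hbb-bt highest) summed to 196, 29 and 42.1 CPM in BTZ+anti-PDL1 tumours, 88.8, 45.3 and 58.1 CPM in anti-PDL1 tumours, and 136, 250 and 268 CPM in isotype tumours. All 6 had lower values in anti-PDL1 tumours than in isotype tumours (median log2 fold change -1.73). Of these 2 were at an unadjusted edgeR p under 0.05, where 6.35% of all genes were. All 6 were also lower in BTZ+anti-PDL1 tumours than in isotype tumours (median -1.06, none at that p). Isotype replicates 1 and 2, lowest in Adipoq, were not low in these genes. Genes of adipocyte progenitors (Anxa3, Pdgfra and Ly6a highest) summed to 341 to 435 CPM over all tumours, a 1.28-fold range. Brown fat genes (Cox7a1, Cox8b and Dio2 highest) summed to 1.63 to 4.08 CPM, with the highest sum in isotype replicate 3. Of the 9 genes 2 (Cox7a1 and Dio2) reached the count filter. Cox8b had 36 counts in isotype replicate 3, 0 in isotype replicates 1 and 2, and at most 11 in any other tumour. No gene of the muscle, macrophage, endothelial, keratinocyte, red blood cell, progenitor or brown fat lists was called by edgeR in any comparison. At an unadjusted p under 0.05 the most in a list were 7 of 10 endothelial genes, all lower in BTZ+anti-PDL1 tumours than in isotype tumours (list median -0.55), where 8.6% of all genes were at that p in either direction. The median of the 17 muscle genes was -0.43 for BTZ+anti-PDL1 against anti-PDL1, -1.05 for anti-PDL1 against isotype and -1.52 for BTZ+anti-PDL1 against isotype, with none at an unadjusted p under 0.05.

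The sums of lists of other lipid and adipogenic genes, many of which are expressed by many cell types, also spanned narrow ranges. Each sum is set by its most abundant genes, so a gene of low level can vary widely without moving it. The SD of log2 CPM within groups was 0.0919 for Fasn but 1.74 for Slc2a4 in the synthesis list. It was 0.138 for Plin3 but 2.5 for Plin4 in the droplet list. Genes of fatty acid and triglyceride synthesis summed to 1400 to 1590 CPM in the 9 tumours, and the highest in FPKM were the desaturase Scd1 (30.7 to 52.8 FPKM), the fatty acid synthase Fasn (34.4 to 40.3 FPKM) and the citrate lyase Acly (29.8 to 38.4 FPKM). Genes of the lipid droplet and lipolysis summed to 423 to 521 CPM, and the highest in FPKM were the droplet coat genes Plin3 (40.4 to 54.6 FPKM) and Plin2 (25.3 to 33.7 FPKM) and Hilpda, an inhibitor of lipolysis (19.7 to 64.4 FPKM). Adipogenic transcription factors summed to 274 to 317 CPM, with Cebpb, Cebpd and Srebf1 highest. None of the 15, 12 and 12 genes tested in these lists was called by edgeR in any comparison. At most 3 of a list had an unadjusted p under 0.05. These were 3 droplet genes and 3 transcription factors, lower in BTZ+anti-PDL1 tumours than in isotype tumours, where 8.6% of all genes were at that p. The medians of these 3 lists lay between -0.13 and 0.04 in all comparisons. Among the genes named here as highest in FPKM, Hilpda had the log2 fold change of largest size. It was -1.01 ± 0.352 for BTZ+anti-PDL1 against isotype (edgeR adjusted p = 0.543). Slc2a4 and Plin4 were not part of this ranking.

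Receptors and partners of the adipocyte products were tested as 14 of 15 genes. The adiponectin receptor Adipor1 stayed between 21.7 and 23.7 FPKM in all tumours, with log2 fold changes of 0 ± 0.0589 for BTZ+anti-PDL1 against anti-PDL1, -0.08 ± 0.0589 for anti-PDL1 against isotype and -0.09 ± 0.0589 for BTZ+anti-PDL1 against isotype. Cap1, reported as a resistin receptor in human cells, and C3ar1, the receptor of a fragment of complement C3, averaged 90.2 and 24 FPKM. None of the 14 was called by edgeR. For BTZ+anti-PDL1 against isotype 4 had an unadjusted p under 0.05, all lower (8.6% of all genes were at that p). For BTZ+anti-PDL1 against anti-PDL1 2 were at that p, both lower (5.82% of all genes). For anti-PDL1 against isotype 2 were at that p, both higher (6.35% of all genes). The list medians were -0.22, -0.32 and 0 in these 3 comparisons. Complement C3, which is cleaved downstream of factor D, was chosen after its values were seen, as the gene of this list most like Adipoq (rank 21). It had 2396, 1025 and 2349 counts in BTZ+anti-PDL1 tumours, 3465, 3457 and 1965 counts in anti-PDL1 tumours, and 537, 857 and 2713 counts in isotype tumours, so isotype replicates 1 and 2 were lowest again.

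Of 17 further white fat markers measured, 11 were tested, and none was called by edgeR. In any comparison at most 1 was at an unadjusted p under 0.05 (5.82% to 8.6% of all genes). The list medians were -0.22 for BTZ+anti-PDL1 against anti-PDL1, 0.06 for anti-PDL1 against isotype and -0.42 for BTZ+anti-PDL1 against isotype. The most abundant, Tenm4, Rbp4 and Ghr, had log2 fold changes of at most 0.14 in size. Rbp4 was lowest in isotype replicate 3, at 12.5 CPM against 15.1 to 22 CPM in the other 8 tumours, and ranked 13016 in likeness to Adipoq, with Ghr at 13010 and Tenm4 at 8599. The markers below the count filter were Adrb3, Mrap, Acvr1c, Nnat, Adig and Timp4. They had 38, 18, 11, 11, 8 and 5 counts in isotype replicate 3 and 0 counts in isotype replicates 1 and 2. Their highest counts in any other tumour were 14, 8, 4, 10, 7 and 5. Plin4, a droplet coat protein of white fat and muscle from the lipid droplet list, and Pnpla3, a lipid droplet acyl hydrolase from the white fat list, were chosen after their values were seen because they ranked 20 and 39 in likeness to Adipoq. Plin4 had 59, 6 and 65 counts in BTZ+anti-PDL1 tumours, 168, 30 and 28 counts in anti-PDL1 tumours, and 1, 0 and 202 counts in isotype tumours. Pnpla3 had 7, 0 and 13 counts in BTZ+anti-PDL1 tumours, 8, 14 and 0 counts in anti-PDL1 tumours, and 1, 1 and 68 counts in isotype tumours. Both were picked for this likeness, so their pattern is a description and does not speak for the rest of either list.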

How the data were processed

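RNA was sequenced from 9 subcutaneous LLC tumours in 3 groups of 3. Groups, doses and replicate numbers follow the labels, replicates are separate tumours of randomised mice, and p-values measure the spread between these tumours. Libraries for Illumina sequencing were built from total RNA, per the labels' protocols. Each deposited count is a raw whole number for a gene in a tumour. FPKM, as the authors deposited it, equalled the count divided by the column total and by a constant per gene, with a largest relative deviation of 5.4e-06 over 10337 genes. HISAT2 2.0.4, StringTie 1.3.3b and mm10 are named, without roles, per the submitters' processing notes. The counting tool, annotation release and strand setting are not given in the sources used here. No exon of the 10 genes overlapped an exon of another gene in the reference annotation, so strand does not bear on their counts.

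The members and all gene lists were chosen with earlier results of these data known. The test across genes was that of edgeR 4.0.16 under R 4.3.3 (quasi-likelihood F test, robust, two-sided, TMM scaling, a model of 3 group means over 9 tumours with 6 residual degrees of freedom, filterByExpr with a minimum count of 10), which left 14506 genes. Calls were made at a Benjamini-Hochberg adjusted p under 0.05 over all genes tested, and the script was checked on simulated data. Each SE is the size of the log2 fold change over the root of its F value. Ratios of counts carry exact binomial 95% intervals. Alternatives were RLE scaling, no count filter, only the 6 tumours compared, a replicate block, leaving out each tumour or the 3 tumours highest in muscle RNA within their groups, DESeq2 1.42.0, and limma 3.58.1 on log2(FPKM + 1), with or without a filter, or log2(FPKM + 0.1). Named genes are the 10 members, the 3 of highest mean FPKM in each list, and the 8 non-members most like Adipoq once predicted loci were left out. C3, Plin4, Pnpla3 and the lung and epithelial markers were chosen after the values were seen. The result of 1 marker list is not reported here.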

Additional observations from a re-analysis of the deposited data

How the results depend on the processing

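No adipocyte gene was called under any of the 18 settings tried: of 410 fits of a gene with an adjusted p, 0 were under 0.05 and the smallest was 0.149. At an unadjusted p under 0.05 there were at most 5 of 8, either without isotype replicate 3 or in the 6 tumours poorest in muscle RNA. Both settings leave out isotype replicate 3, the tumour highest in these genes. DESeq2 gave no p for Cidec, and RLE scaling, DESeq2, the lack of a count filter and the fit of only the 6 tumours compared turned no direction of a tested gene. With 3 tumours a group and standard errors above 1 for 5 of the 8 genes, their directions were not fixed by these data. The counts of all genes called were 2 for BTZ+anti-PDL1 against anti-PDL1, 2 for anti-PDL1 against isotype and 1 for BTZ+anti-PDL1 against isotype. In that order of comparisons DESeq2 called 61, 15 and 109, and the 6 tumours poorest in muscle RNA gave 0, 0 and 0 (735, 1092 and 1416 at an unadjusted p under 0.05). With no count filter edgeR called 4 for BTZ+anti-PDL1 against anti-PDL1 and 6 for BTZ+anti-PDL1 against isotype. With only the 6 tumours compared it called 12 and 0 for these (947 unadjusted for the last). For BTZ+anti-PDL1 against isotype, limma with the FPKM filter called 3 with either pseudocount, and without it 0 (1619 unadjusted). Leaving out each tumour gave 1 to 7 calls for BTZ+anti-PDL1 against anti-PDL1. The count was 7 when isotype replicate 1 was left out, 5 when isotype replicate 2 was, and 1 when isotype replicate 3, BTZ+anti-PDL1 replicate 1 or either of anti-PDL1 replicates 1 and 2 was. For anti-PDL1 against isotype the range was 1 to 4, with 4 if isotype replicate 2 was left out and 1 if anti-PDL1 replicate 1 or 2 was. For BTZ+anti-PDL1 against isotype it was 0 to 20, with 20 without isotype replicate 3, 4 without isotype replicate 2, 3 without anti-PDL1 replicate 1, 2 without isotype replicate 1, and 0 without any BTZ+anti-PDL1 tumour or anti-PDL1 replicate 2 or 3. Same-numbered tumours did not deviate together consistently (3 of 9 pairs had a correlation above 0.1, with a range of -0.434 to 0.393). The highest was for replicate 1 of the BTZ+anti-PDL1 and anti-PDL1 groups. The labels state no pairing. With the replicate block 1, 1 and 0 genes were called (1132 unadjusted for the last). The log2 fold changes that turned with the block were for BTZ+anti-PDL1 against anti-PDL1 Adipoq -0.53, Cfd -1.12, Cidec -0.33, Fabp4 -0.15 and Car3 -0.85, for anti-PDL1 against isotype Adipoq 0.54, Cfd 1.52, Plin1 0.96, Cidec 0.35, Lpl 0.29 and Car3 1.00, and for BTZ+anti-PDL1 against isotype Adipoq 0.014, Cfd 0.40, Plin1 0.14, Cidec 0.019 and Car3 0.15. In the 6 tumours poorest in muscle RNA the medians were 3.25 for anti-PDL1 against isotype and 3.93 for BTZ+anti-PDL1 against isotype. The values that turned there were for BTZ+anti-PDL1 against anti-PDL1 Plin1 0.77, for anti-PDL1 against isotype Adipoq 3.00, Cfd 4.33, Plin1 4.05, Cidec 3.49, Lpl 1.04, Pparg 0.0015 and Car3 5.06, and for BTZ+anti-PDL1 against isotype Adipoq 3.55, Cfd 5.83, Plin1 4.82, Cidec 4.31, Fabp4 0.20, Lpl 0.67 and Car3 5.91. By limma on log2(FPKM + 1), with the filter or without, they were for BTZ+anti-PDL1 against anti-PDL1 Fabp4 -0.00045, for anti-PDL1 against isotype Cfd 0.91, Lpl 0.16 and Car3 0.46, and for BTZ+anti-PDL1 against isotype Cfd 0.97 and Car3 0.51. On log2(FPKM + 0.1) they were for BTZ+anti-PDL1 against anti-PDL1 Fabp4 -0.031 and Car3 -0.17, for anti-PDL1 against isotype Adipoq 0.72, Cfd 2.28, Lpl 0.31 and Car3 1.92, and for BTZ+anti-PDL1 against isotype Adipoq 0.73, Cfd 2.29 and Car3 1.75. The limma fits with the FPKM filter held only 5 genes of the list, without Plin1, Cidec and Pparg. Leaving out each tumour gave medians of -0.38 to 0.60 for BTZ+anti-PDL1 against anti-PDL1, -1.47 to 3.87 for anti-PDL1 against isotype and -1.25 to 4.11 for BTZ+anti-PDL1 against isotype. The ranges by gene for BTZ+anti-PDL1 against anti-PDL1 were Adipoq -0.43 to 0.60, Cfd -0.94 to 1.27, Plin1 -0.86 to 0.57, Cidec 0.019 to 1.13, Fabp4 -0.34 to 0.43, Lpl -0.67 to 0.046, Pparg -0.37 to 0.056 and Car3 -0.94 to 1.81. For anti-PDL1 against isotype they were Adipoq -1.47 to 3.56, Cfd -2.05 to 5.24, Plin1 -1.15 to 4.75, Cidec -1.81 to 4.17, Fabp4 -1.63 to 0.17, Lpl -0.45 to 1.01, Pparg -0.25 to 0.21 and Car3 -2.30 to 6.85. For BTZ+anti-PDL1 against isotype they were Adipoq -1.43 to 3.60, Cfd -2.08 to 5.6, Plin1 -1.31 to 4.63, Cidec -1.25 to 4.63, Fabp4 -1.56 to 0.24, Lpl -0.74 to 0.72, Pparg -0.33 to 0.059 and Car3 -1.45 to 6.86. The upper ends of both comparisons with isotype came without isotype replicate 3. The cause of the other turns was not tested.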
